A study of Mus musculus with 6 samples.

Results

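CC chemokines are small secreted proteins, and 10 of their genes were followed across untreated, LPS-stimulated and USP7 inhibitor-treated macrophages: *Ccl2*, *Ccl3*, *Ccl4*, *Ccl5*, *Ccl6*, *Ccl7*, *Ccl9*, *Ccl12*, *Ccl17* and *Ccl22*. The members were the array spots, other than control spots, that carry 1 of these gene names. All 10 were found, each with 1 probe, out of 34844 gene names on the array. They took up 19 of 59305 spots, because the probe of *Ccl2* was printed on 10 spots.

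The cells were bone marrow–derived macrophages (BMDMs) of wild type C57BL/6 female mice (strain tag C57/B6), 6 to 8 weeks old according to the labels (the study states another age), grown out for 7 days in medium conditioned by L929 cells. One group was left untreated, another was given LPS, a bacterial product sensed by TLR4, for 4 h, and the last received 10 µM HBX41,108, a small molecule inhibitor of the deubiquitinase USP7, 30 min before the same LPS stimulus (LPS+USP7i). The series description gives LPS at 100 ng/ml, while the treatment label gives 100 ng/ul. Whether the cells given LPS alone also received the inhibitor's solvent was not stated, so LPS+USP7i against LPS includes any solvent effect. Each group had 2 arrays, from independent experiments according to the series description, so every value rests on few measurements.

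CC chemokines take their name from a pair of adjacent cysteines near the start of the mature protein, and they attract leukocytes through G protein-coupled CC chemokine receptors. Macrophages that sense bacterial products release many of them, and the ligands differ in the cells they call in: the monocyte chemoattractant group acts on monocytes through CCR2, the macrophage inflammatory protein group acts on monocytes and T cells, and the CCR4 ligands act on T cell subsets. In the mouse most inflammatory CC chemokine genes lie side by side on a single chromosome.

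By the probe positions in the array files (build mm9), the members fell into 3 neighbourhoods. *Ccl2* (chr11:81850650-81850709), *Ccl7* (chr11:81860656-81860715) and *Ccl12* (chr11:81916764-81916823), all on the plus strand, spanned 66.2 kb. *Ccl5* (chr11:83339296-83339355), *Ccl9* (chr11:83388223-83388282), *Ccl6* (chr11:83401997-83402056), *Ccl3* (chr11:83461358-83461417), these 4 on the minus strand, and *Ccl4* (chr11:83478052-83478111), on the plus strand, spanned 139 kb. *Ccl22* (chr8:97274709-97274768) and *Ccl17* (chr8:97335770-97335829) lay 61.1 kb from end to end on another chromosome, on the plus strand.

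Promoter sequences from RefSeq (build GRCm38.p6) were at hand for 6 of the 10 members, *Ccl3*, *Ccl6*, *Ccl9*, *Ccl12*, *Ccl17* and *Ccl22*. The 250 bases before the annotated start are shown for the 4 members that were lower with the inhibitor, *Ccl9* (chr11:83578637-83578886, minus strand), *Ccl12* (chr11:82101595-82101844, plus strand), *Ccl17* (chr8:94810203-94810452, plus strand) and *Ccl22* (chr8:94745434-94745683, plus strand), each 5′ to 3′ along its gene. Capitals mark matches, on either strand, to a κB-like pattern of 10 bases of which 6 were fixed.
Ccl9: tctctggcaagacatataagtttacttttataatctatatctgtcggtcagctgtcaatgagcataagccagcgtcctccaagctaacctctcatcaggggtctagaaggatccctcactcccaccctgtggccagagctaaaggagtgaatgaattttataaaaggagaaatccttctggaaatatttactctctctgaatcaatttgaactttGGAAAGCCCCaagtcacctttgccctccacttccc
Ccl12: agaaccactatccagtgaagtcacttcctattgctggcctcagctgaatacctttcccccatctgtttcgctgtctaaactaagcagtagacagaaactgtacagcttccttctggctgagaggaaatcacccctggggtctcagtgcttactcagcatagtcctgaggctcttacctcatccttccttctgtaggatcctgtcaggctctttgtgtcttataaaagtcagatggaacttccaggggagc
Ccl17: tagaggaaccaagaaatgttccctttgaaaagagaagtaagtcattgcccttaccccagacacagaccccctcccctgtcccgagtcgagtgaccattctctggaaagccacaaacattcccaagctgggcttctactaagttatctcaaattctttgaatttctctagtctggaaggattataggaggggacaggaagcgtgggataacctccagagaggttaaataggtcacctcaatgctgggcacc
Ccl22: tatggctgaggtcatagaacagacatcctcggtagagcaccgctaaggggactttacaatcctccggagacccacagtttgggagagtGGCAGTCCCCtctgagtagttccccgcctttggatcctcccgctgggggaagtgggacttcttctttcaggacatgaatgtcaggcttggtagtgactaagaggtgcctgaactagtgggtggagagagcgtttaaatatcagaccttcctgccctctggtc
The κB-like pattern occurred in 2 of the 6 promoters, *Ccl9* at bases 35 to 26 before the start and *Ccl22* at bases 162 to 153 before the start, both on the opposite strand. Over all 32851 promoters of the table, windows of the same length held this pattern in 14.9%. The AP-1-like letters TGANTCA occurred in *Ccl9* alone among the 6, at bases 53 to 47 before the start, and in 6.75% of all promoters. An interferon response-like pattern of 10 bases, 8 of them fixed, occurred in 0 of the 6 and in 2.98% of all promoters. The matches of *Ccl9* did not overlap each other. A match describes letters in this window only.

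LPS raised most of the 10 members. Of the 10 members, 9 were higher in LPS-stimulated than in untreated BMDMs and 0 were lower (limma, adjusted p under 0.05), with 0 lower at an unadjusted p under 0.05 as well, and *Ccl6* was the exception. Among all 34843 genes tested, 7.99% were higher and 12.7% were lower with LPS. The median log2 difference was 4.87 over the 10 members and 0.0018 over all genes tested. Because these were bulk samples, a change in RNA per cell and a change in the number of cells making it cannot be told apart.

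**Figure D1:**
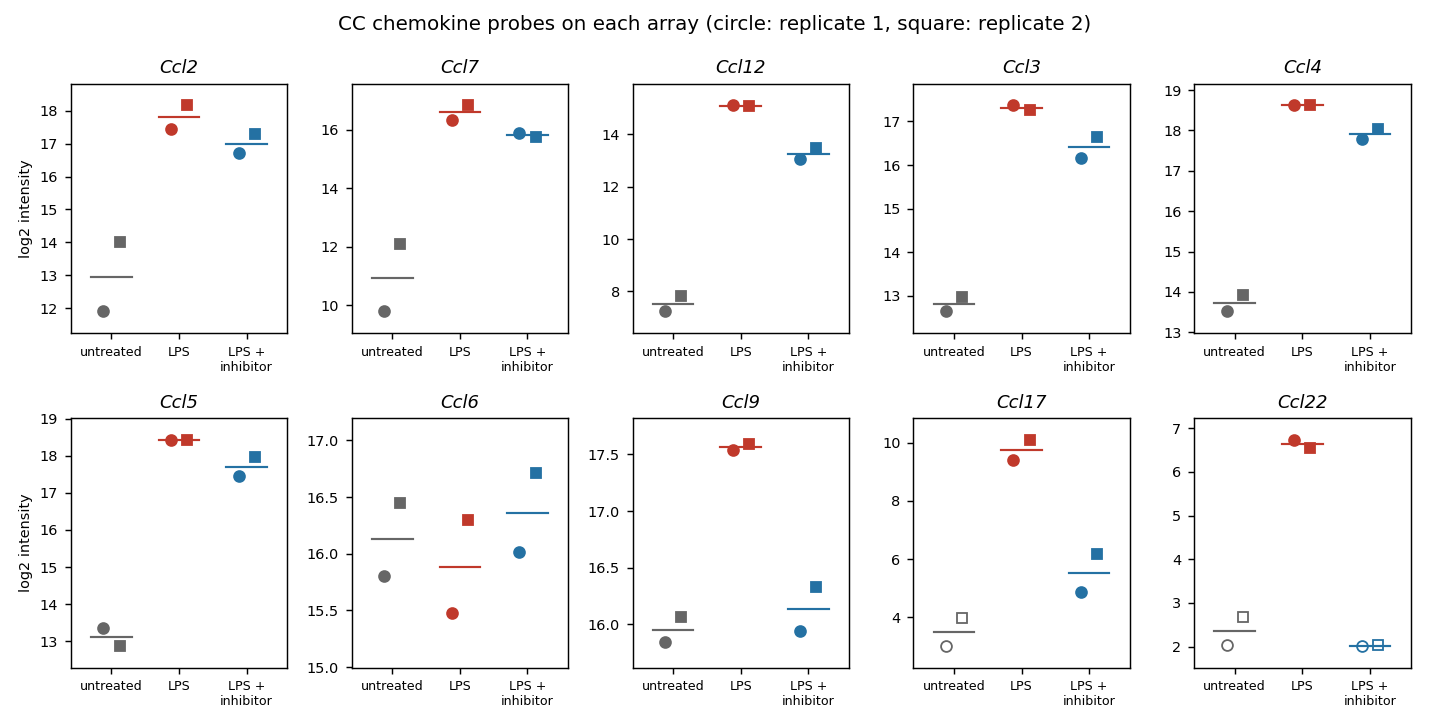
Normalized log2 intensity of each CC chemokine probe (vertical axis, scaled separately for each gene) in untreated, LPS and LPS+USP7i macrophages. Each point is 1 array, bars are means of 2 arrays, and open points mark groups in which the probe was not well above background on either array. All members except *Ccl6* are higher with LPS.

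Among the monocyte chemoattractants, which act through CCR2, *Ccl12* had a log2 intensity of 7.24 and 7.82 (untreated), 15.12 and 15.09 (LPS), and 13.05 and 13.48 (LPS+USP7i). The LPS arrays were far above the untreated arrays, the LPS+USP7i arrays lay in between, and no groups overlapped. *Ccl12* rose by 7.57 with LPS (standard error 0.262, adjusted p = 0.0026), a 191-fold increase and the 29th largest of all genes tested. *Ccl2*, the main attractant of monocytes, read 11.90 and 14.02 (untreated), 17.43 and 18.16 (LPS), and 16.70 and 17.28 (LPS+USP7i). *Ccl7* read 9.78 and 12.10 (untreated), 16.35 and 16.84 (LPS), and 15.89 and 15.74 (LPS+USP7i). The untreated arrays of both genes were far apart, with replicate 2 the higher, yet both lay well below every stimulated array. The SD of the untreated arrays was 1.49 for *Ccl2* and 1.64 for *Ccl7*, against 0.415 for *Ccl12*. Within an array the 10 *Ccl2* spots lay close together, with an SD of 0.0648 on untreated replicate 1 and 0.0599 on untreated replicate 2. The LPS rise was 4.84 for *Ccl2* (standard error 0.813, adjusted p = 0.0288). It was 5.65 for *Ccl7* (standard error 0.834, adjusted p = 0.0211).

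*Ccl3*, *Ccl4* and *Ccl5*, which attract monocytes and T cells, could be measured before stimulation and rose with LPS. *Ccl3* read 12.64 and 12.97 (untreated), 17.37 and 17.26 (LPS), and 16.17 and 16.65 (LPS+USP7i). *Ccl4* read 13.52 and 13.92 (untreated), 18.62 on both LPS arrays, and 17.79 and 18.05 (LPS+USP7i). *Ccl5* read 13.36 and 12.87 (untreated), 18.43 on both LPS arrays, and 17.45 and 17.98 (LPS+USP7i). For each of the 3 genes every LPS array was above every LPS+USP7i array, and every LPS+USP7i array was above every untreated array. *Ccl4* rose by 4.90 (standard error 0.175, adjusted p = 0.00264) and *Ccl5* by 5.31 (standard error 0.261, adjusted p = 0.00332). *Ccl3* rose by 4.51 (standard error 0.212, adjusted p = 0.00321). The identical LPS readings of *Ccl4* come from quantile normalization, which gives equal values to equal ranks: its probe ranked 1 on both LPS arrays, while its processed signals were 380700 and 413400. The *Ccl5* probe ranked 5 and 4 there, with processed signals of 334500 and 353400. Normalization ran on spots, before the spots of a probe were averaged. The highest *Ccl2* spot read 17.48 on LPS replicate 1, below *Ccl5*, and 18.47 on LPS replicate 2, above it. Whether this made the *Ccl5* LPS readings nearly identical was not tested.

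*Ccl9* and *Ccl6* are rodent ligands of CCR1, and they behaved differently from each other. *Ccl9* read 15.84 and 16.06 (untreated), 17.54 and 17.59 (LPS), and 15.94 and 16.33 (LPS+USP7i). The LPS arrays stood above all others, and the untreated and LPS+USP7i arrays overlapped. *Ccl9* rose by 1.61 with LPS (standard error 0.168, adjusted p = 0.00981), a 3.06-fold increase. *Ccl6* read 15.81 and 16.45 (untreated), 15.48 and 16.30 (LPS), and 16.01 and 16.71 (LPS+USP7i). All 3 groups overlapped, and replicate 2 was the higher array in each. Between arrays of the same number, *Ccl6* differed by −0.329 and −0.156 with LPS and by 0.536 and 0.415 with the inhibitor. The *Ccl6* difference with LPS was −0.24 (95% confidence interval −1.47 to 0.987, adjusted p = 0.85). In this fit, which does not pair arrays, neither a moderate rise nor a fall can be told from no change.

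*Ccl17* and *Ccl22*, the ligands of CCR4, were not well above background on either untreated array. *Ccl17* read 2.998 and 3.96 (untreated), 9.42 and 10.10 (LPS), and 4.87 and 6.16 (LPS+USP7i). *Ccl22* read 2.04 and 2.68 (untreated), 6.73 and 6.56 (LPS), and 2.01 and 2.03 (LPS+USP7i), where it was again not well above background. A fold against such a group is a bound, the mean of the brighter group over the mean, per array, of the probe's own value or the lowest value of any probe well above background, whichever was higher. With LPS, *Ccl17* was at least 57.6-fold higher (adjusted p = 0.00871). *Ccl22* was at least 6.66-fold higher (adjusted p = 0.00383). These bounds hold for the background correction used here: the log2 difference was 3.53 for *Ccl17* and 1.31 for *Ccl22* with normexp, and 4.89 and 2.87 with the deposited table, all but the last smaller than the bound.

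With the inhibitor some members fell from their LPS level, and none was called higher. Of the 10 members, 4 were lower in LPS+USP7i than in LPS cells, *Ccl9*, *Ccl12*, *Ccl17* and *Ccl22*, and 0 were higher by limma, with 6 lower and 0 higher at an unadjusted p under 0.05. Among all genes tested, 4.29% were lower and 5.42% were higher. The median difference was −0.85 over the members and 0.00016 over all genes. This comparison uses the same LPS arrays as the one against untreated cells, and over the 2784 genes raised by LPS the median difference was −0.78.

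*Ccl22* dropped by 5.15-fold or more from its LPS level (adjusted p = 0.011), a bound because it was not well above background on either LPS+USP7i array. This bound holds for the background correction used here: with normexp the log2 difference was −1.25, smaller than the bound. *Ccl17* fell by 4.24 (standard error 0.617, adjusted p = 0.0365), an 18.9-fold decrease that left 5.28% of its LPS level. *Ccl12* fell by 1.84 (standard error 0.262, adjusted p = 0.0349) and kept 27.9% of its LPS level. *Ccl9* fell by 1.43 (standard error 0.168, adjusted p = 0.0257) and kept 37.1%. All 4 were lower on both LPS+USP7i arrays than on either LPS array.

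The other LPS-raised members were also lower on both inhibitor arrays than on either LPS array, but their differences did not pass the threshold. The difference was −0.90 for *Ccl3* (95% confidence interval −1.49 to −0.318, adjusted p = 0.0919). It was −0.70 for *Ccl4* (−1.19 to −0.221, adjusted p = 0.103). It was −0.71 for *Ccl5* (−1.44 to 0.00672, adjusted p = 0.224). These 3 kept 53.5%, 61.4% and 60.9% of the LPS level, respectively. For *Ccl2* the difference was −0.80 (−3.05 to 1.44, adjusted p = 0.661) and for *Ccl7* it was −0.78 (−3.08 to 1.53, adjusted p = 0.681), intervals that hold both a large fall and a rise. *Ccl6* was the only member with a difference above 0, 0.48 (−0.753 to 1.70, adjusted p = 0.632), and its groups overlapped. With replicate number as a block in limma, the adjusted p of *Ccl6* was 0.0683, still above the threshold. Whether any member's difference was larger than another's was not tested.

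**Figure D2:**
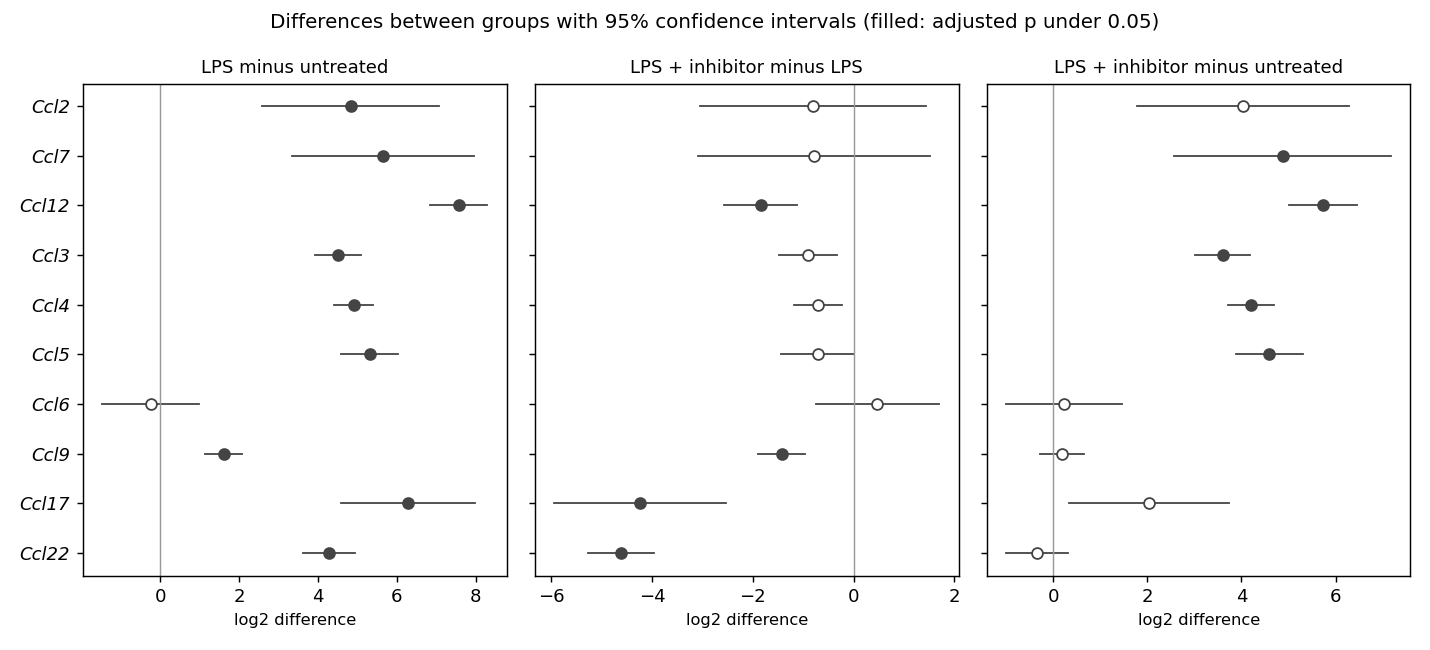
Log2 difference (horizontal axis) of each CC chemokine in the 3 comparisons, with 95% confidence intervals from limma. Filled points have an adjusted p under 0.05. The intervals of *Ccl2* and *Ccl7* are the widest in the LPS comparison, and with the inhibitor *Ccl9*, *Ccl12*, *Ccl17* and *Ccl22* are the filled points.

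**Figure D3:**
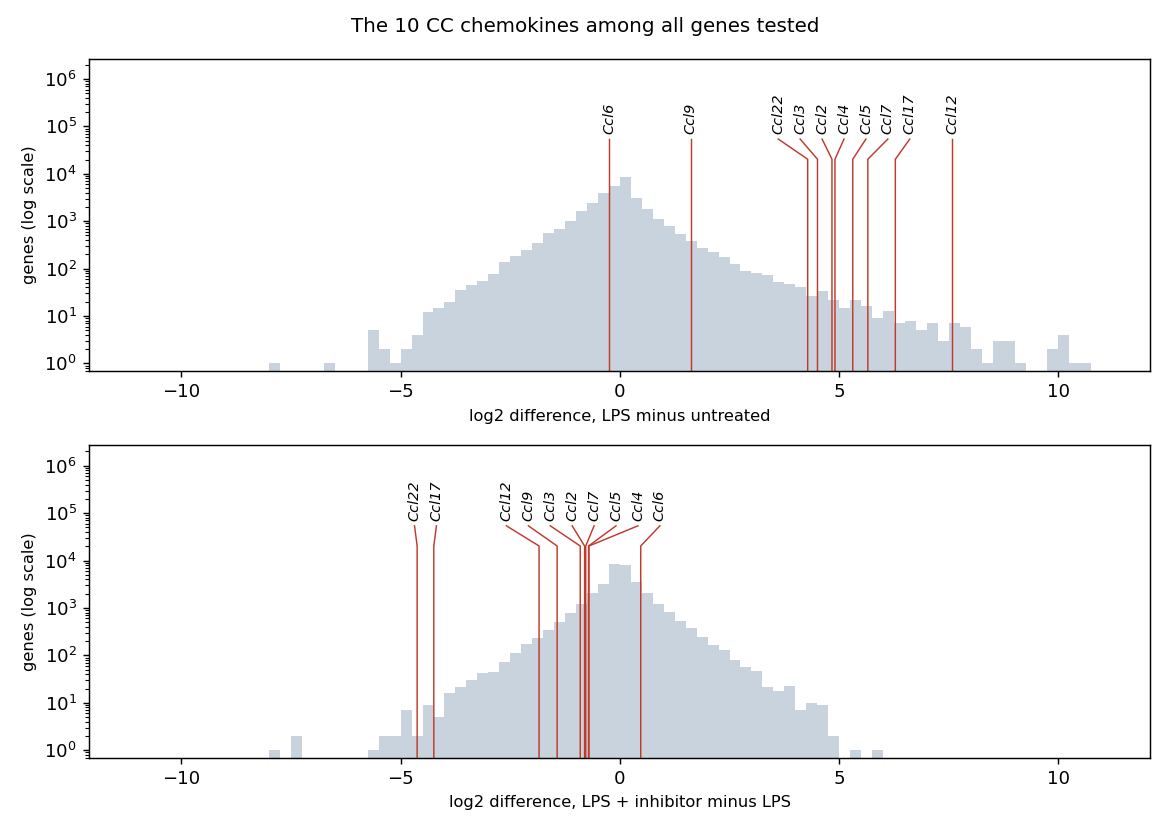
Number of genes (vertical axis, log scale) by log2 difference (horizontal axis) for LPS minus untreated and for LPS+USP7i minus LPS, over all 34843 genes tested, with the 10 CC chemokines marked by lines. Most members lie in the upper tail with LPS. Both comparisons use the same LPS arrays.

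The calls against LPS cells rest on few arrays. In fits of only the 2 groups compared, limma called 0 of the 10 members lower, although 8 were lower at an unadjusted p under 0.05, and the adjusted p of *Ccl22* was 0.0559. Over all genes such fits called 0 higher and 0 lower, with 4285 higher and 3716 lower at an unadjusted p under 0.05. The count was also 0 without untreated replicate 1 and 0 without untreated replicate 2, which enter through the shared estimate of the spread, again with 8 lower before adjustment: in both fits the adjusted p was 0.0761 for *Ccl9*, 0.0873 for *Ccl17* and 0.0559 for *Ccl22*, and for *Ccl12* it was 0.067 and 0.0671. It was 1, *Ccl22*, without LPS replicate 1 (adjusted p 0.0362; 0.1 for *Ccl9*, 0.135 for *Ccl12* and 0.113 for *Ccl17*). It was also 1, the same gene, without LPS replicate 2 (0.0417; 0.098, 0.123 and 0.13 for the others in that order) and without LPS+USP7i replicate 1 (0.0361; 0.053, 0.112 and 0.0966). It was 3 without LPS+USP7i replicate 2, where *Ccl12* no longer passed (adjusted p = 0.0632). With single arrays left out, the log2 difference of *Ccl17* lay between −4.89 and −3.60. Background handling mattered for both CCR4 ligands: with normexp the difference was −1.25 for *Ccl22* and −3.04 for *Ccl17*, and with the deposited table it was −2.46 and −3.86.

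Calls against untreated cells also depended on single arrays for 3 genes. *Ccl2* and *Ccl7* missed the threshold without LPS replicate 1 (adjusted p = 0.0998 and 0.0897), without LPS replicate 2 (0.119 and 0.0952), without LPS+USP7i replicate 1 (0.0698 and 0.0584) and without LPS+USP7i replicate 2 (0.0698 and 0.0583). *Ccl9* missed it without untreated replicate 1 (0.056), untreated replicate 2 (0.0504), LPS replicate 1 (0.0549) or LPS replicate 2 (0.0534). In fits of only the 2 groups compared, 7 members were higher with LPS, without *Ccl2* (0.0698) and *Ccl7* (0.0583), and *Ccl7* did not pass in LPS+USP7i minus untreated (0.0947). Scaling each array by its 75th percentile instead moved the median of all genes by 0.404 in LPS minus untreated and by 0.438 in LPS+USP7i minus untreated, and gave 12185 genes higher and 4051 lower with LPS, against 2784 higher and 4436 lower here. For LPS+USP7i minus untreated it gave 12217 higher and 3363 lower, against 2144 and 3059. The *Ccl6* difference with LPS turned to 0.31 under that scaling, or −0.0956 relative to the shifted median.

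How much of the LPS response remained with the inhibitor was read from LPS+USP7i against untreated cells. Of the 10 members, 5 were still higher than in untreated cells, *Ccl3*, *Ccl4*, *Ccl5*, *Ccl7* and *Ccl12*, and 0 were lower by limma, with 7 higher and 0 lower at an unadjusted p under 0.05. Among all genes tested, 6.15% were higher and 8.78% were lower. The median difference was 3.82 over the members and −0.0022 over all genes. *Ccl12* was 5.73 above untreated cells (standard error 0.262, adjusted p = 0.0052), a 53.1-fold difference, even though it was among the members reduced by the inhibitor. *Ccl5* was 4.60 higher (standard error 0.261, adjusted p = 0.00622), and *Ccl4* was 4.20 higher (standard error 0.175, adjusted p = 0.0049). *Ccl3* was 3.60 higher (standard error 0.212, adjusted p = 0.00632). *Ccl7* was 4.88 higher (standard error 0.834, adjusted p = 0.0373), a call lost without either LPS replicate (adjusted p = 0.0946 each) and without LPS+USP7i replicate 1 (0.134) or 2 (0.126).

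The other members did not pass the threshold against untreated cells in this fit, although *Ccl2* and *Ccl17* passed in some of the alternatives, as the closing section gives. *Ccl2* was 4.03 above untreated cells (standard error 0.813, adjusted p = 0.0546). *Ccl9* was 0.18 above (95% confidence interval −0.283 to 0.648, adjusted p = 0.621), and the arrays of both groups overlapped, so it cannot be told from no change. *Ccl17* was at least 3.04-fold above untreated cells, without passing the threshold (adjusted p = 0.137). This bound too depended on the choices made: the log2 difference was 1.39 without LPS+USP7i replicate 2, 1.56 without untreated replicate 1, 0.50 with normexp and 1.02 with the deposited table, each smaller than the bound. *Ccl22* was not well above background in either group and has no fold here.

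Some members had profiles more alike than others. Likeness was measured as the root mean square difference between log2 profiles over the 6 arrays, each centred on its own mean, so that smaller values mean closer profiles. *Ccl3* and *Ccl4* were the closest pair (0.259), followed by *Ccl4* and *Ccl5* (0.33) and by *Ccl2* and *Ccl7* (0.455). Each of these pairs lies within 1 of the neighbourhoods above, but likeness did not follow position throughout. Pairs from different neighbourhoods, such as *Ccl2* and *Ccl4* (0.551) or *Ccl2* and *Ccl3* (0.601), were closer than some pairs within 1. Examples of the latter are *Ccl2* and *Ccl12* (1.23) and *Ccl5* and *Ccl6* (2.42). *Ccl12* was closest to *Ccl7* (0.957), and *Ccl17* and *Ccl22* were closest to each other (1.14). *Ccl6* and *Ccl12* were the furthest apart (3.29).

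Outside the family, 13106 named genes well above background in at least 1 group were searched for the profile closest to each member. *Socs1*, a feedback inhibitor of cytokine signalling, was closest to *Ccl12* (0.279), with a log2 difference of 7.45 with LPS and −1.73 with the inhibitor. *Ifit1*, an interferon-induced antiviral gene, was closest to *Ccl5* (0.229), with 5.82 and −0.81. The closest gene was *Tcp10a* to *Ccl2* (0.421), *AW011738* to *Ccl3* (0.11), the first 2 of these not well above background on either untreated array, *Rab11fip1* to *Ccl4* (0.125), *Jsrp1* to *Ccl6* (0.116) and *Abtb2* to *Ccl7* (0.536). It was *Senp6* to *Ccl9* (0.0729), *Serpina3i* to *Ccl17* (0.39) and *Fbn1* to *Ccl22* (0.393), 3 genes that were likewise not well above background on either untreated array, nor, for *Senp6* and *Fbn1*, on either LPS+USP7i array. The same holds for *Ccl22* itself, so likenesses that involve such genes rest partly on background values. These likenesses describe 6 arrays and carry no test.

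Of 14 further CC chemokine genes listed, 10 were on the array and 6 were well above background on each array of 1 or more groups. With LPS 2 of the 10 were higher and 1 was lower, and with the inhibitor 1 was lower and 0 were higher by limma, with 2 lower and 1 higher at an unadjusted p under 0.05. Over all genes the shares were 7.99% and 12.7% with LPS, and 4.29% lower and 5.42% higher with the inhibitor. The median log2 difference was 0.21 with LPS and −0.06 with the inhibitor. *Ccl24*, an eosinophil attractant, read 5.28 and 5.75 (untreated), 8.70 and 8.17 (LPS), and 5.01 and 6.19 (LPS+USP7i). It rose by 2.92 with LPS (standard error 0.487, adjusted p = 0.0282) and fell by 2.83 with the inhibitor (standard error 0.487, adjusted p = 0.0499), with overlap between untreated and LPS+USP7i arrays. The fall was not called in fits of only the 2 groups compared, which called 0 genes lower. *Ccl19*, a CCR7 ligand, rose by 1.55 with LPS (adjusted p = 0.0338) and *Ccl27a* fell by 0.65 (adjusted p = 0.0207), each on the brightest of 3 probes. The other *Ccl19* probes gave −0.31 and 0.40 and the other *Ccl27a* probes −0.55 and 0.01, none past the threshold. *Ccl25* was not called by its brightest probe (0.64 with the inhibitor, adjusted p = 0.31), but the third brightest of its 4 probes was at least 1.14-fold higher with the inhibitor (adjusted p = 0.027). *Ccl19* and *Ccl27a* have near-identical copies in the mouse genome, so which copy was read is uncertain.

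Among the 12 CC chemokine receptor genes listed, all on the array and 8 well above background on each array of 1 or more groups, 3 were higher and 1 was lower with LPS (limma), against 7.99% and 12.7% of all genes. *Ccrl2*, an atypical receptor of activated macrophages, rose by 5.37 (standard error 0.173, adjusted p = 0.00254). *Ccr3*, the eotaxin receptor, rose by 1.58 (adjusted p = 0.00873). *Ccr9* was at least 5.44-fold higher (adjusted p = 0.0224) by its brighter probe, while its other probe did not reach that level on a single array. *Ccr2*, the receptor of *Ccl2*, *Ccl7* and *Ccl12* products, went the other way: it read 10.90 and 10.43 (untreated), 8.85 and 8.76 (LPS), and 6.56 and 6.85 (LPS+USP7i). No groups overlapped, and each step went down. *Ccr2* fell by 1.86 with LPS (standard error 0.203, adjusted p = 0.0108) and dropped by 2.10 from the LPS level with the inhibitor (standard error 0.203, adjusted p = 0.0193). Of 7 listed symbols for atypical receptors and the chemokine-trimming peptidase DPP4, 4 were on the array, 0 were well above background on the 2 arrays of any group, and 0 passed the limma threshold in any comparison (at an unadjusted p under 0.05, 2 were lower with the inhibitor).

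**Figure D4:**
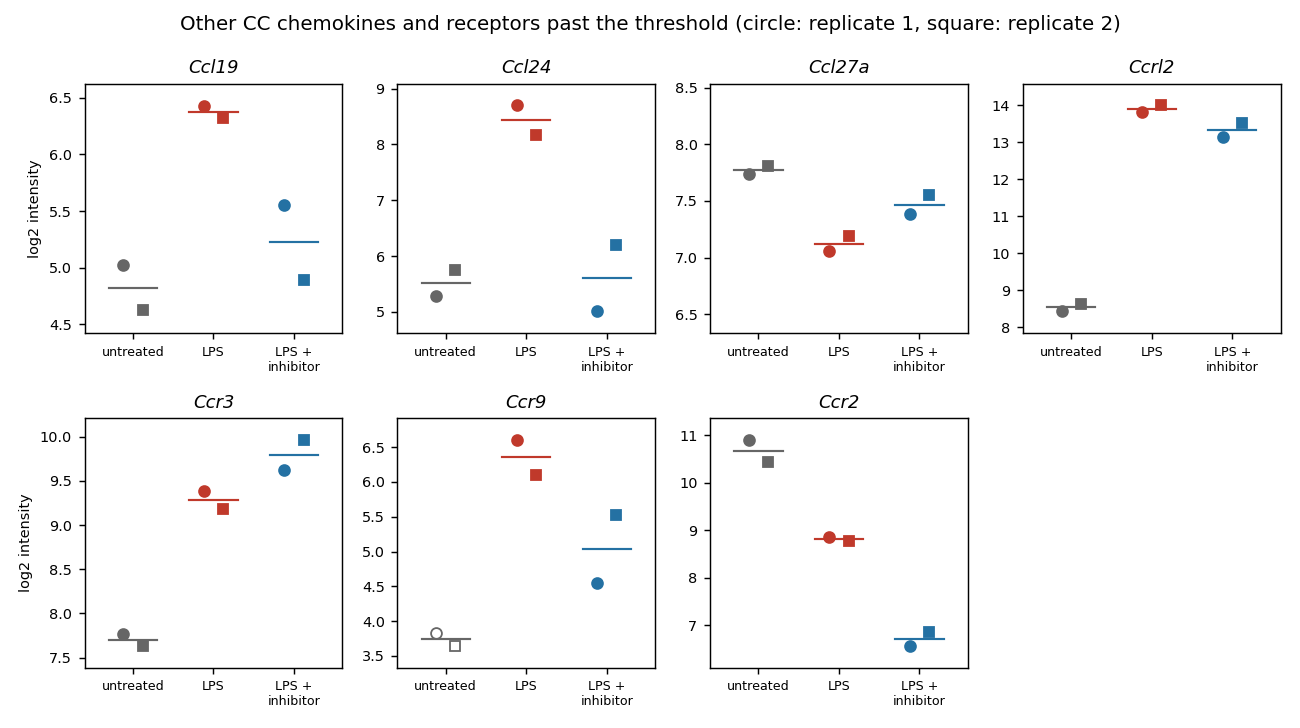
Normalized log2 intensity (vertical axis, scaled separately for each gene) of the CC chemokines outside the 10 members that passed the threshold with LPS or with the inhibitor, and of receptors that passed it with LPS. Each point is 1 array, bars are means of 2 arrays, and open points mark groups not well above background. *Ccr2* steps down from untreated to LPS to LPS+USP7i, while *Ccrl2* rises with LPS and stays high.

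The labelled cell type was checked against marker genes. All 8 macrophage markers found on the array were well above background on every array, *Csf1r* being the brightest. Their summed normalized intensity was 727800 and 719100 (untreated), 737900 and 746400 (LPS), and 625000 and 585000 (LPS+USP7i). With LPS *Cd14* rose by 1.70 (adjusted p = 0.005) and *Itgam* fell by 0.65 (adjusted p = 0.0237). The sum was lowest on both inhibitor arrays. With the inhibitor 5 of the 8 markers were below and 3, *Itgam*, *Cd68* and *Lyz2*, were above their LPS level. By the brightest probe of each marker 2 passed the threshold: *Cd14* fell by 1.33 (adjusted p = 0.0176) and *Fcgr1* by 1.61 (adjusted p = 0.0318). The less bright *Cd68* probe went the other way, rising by 0.43 with the inhibitor (adjusted p = 0.0347) after falling by 0.42 with LPS (adjusted p = 0.0193). The part of this in the chemokine differences was not tested.

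Dendritic cells also make *Ccl17* and *Ccl22*. Of 6 dendritic cell markers, 2 were well above background on each array of 1 or more groups, *Ccr7*, the brightest, and *Zbtb46*. *Flt3*, *Cd209a*, *Xcr1* and *Clec9a* were not well above background on either array of any group. The summed intensity of the 6 was 1406 and 1040 (untreated), 1909 and 1070 (LPS), and 1050 and 880.1 (LPS+USP7i). *Zbtb46* was at least 5.65-fold higher with LPS (adjusted p = 0.00435) and differed by −0.36 with the inhibitor (adjusted p = 0.314). Whether these cells contributed to *Ccl17* or *Ccl22* was not tested.

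Of 8 neutrophil markers, 7 were well above background on every array, and their sum was 9299 and 12800 (untreated), 8726 and 16130 (LPS), and 11400 and 16040 (LPS+USP7i), higher in replicate 2 of each group, although *Ly6g* and *Mpo* were lower there. With limma 0 of them were called in any comparison (unadjusted p under 0.05: 1 lower with LPS, 1 higher with the inhibitor). *Mmp8* was the brightest of them. Of 5 T cell markers on the array, 3 were well above background on every array, *Cd4* being the brightest. Their sum was 2279 and 2074 (untreated), 4278 and 4409 (LPS), and 2691 and 2178 (LPS+USP7i), and *Lck* alone passed the threshold, rising by 4.23 with LPS (adjusted p = 0.0033) and then falling by 2.48 with the inhibitor (adjusted p = 0.0158). Of the defining T cell markers, *Cd3e* was well above background on every array, while *Cd3g* and *Cd8a* were not on either array of any group. The less bright *Cd4* probe, printed on 10 spots, was also not well above background on either array of any group.

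Of 5 B cell markers, 2 were well above background on every array, with *Cd79b* the brightest, and the list's sum was 1057 and 668.2 (untreated), 1156 and 532.6 (LPS), and 714.3 and 314.2 (LPS+USP7i). *Pax5* alone was called, at least 1.39-fold higher with the inhibitor (adjusted p = 0.0244). Of 4 endothelial markers only *Kdr* was well above background on every array, and the sum was 7171 and 5353 (untreated), 7161 and 6184 (LPS), and 9793 and 7104 (LPS+USP7i). Of 5 stromal markers 1, *Dcn*, was well above background on both arrays of a group, and the sum stayed between 59.93 and 109.8. Natural killer, mast cell and basophil, and erythroid markers had 0 genes well above background on the 2 arrays of any group.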

How the data were processed

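Total RNA labelled with Cy3 was hybridized to 6 single-color Agilent arrays on 1 slide read in 1 scan. The authors deposited scanner files whose processed spot intensity was background-corrected by Agilent Feature Extraction 10.7.3.1, and a table of normalized log2 values, used here only as an alternative. The last field of the slide position followed treatment, so position on the slide and treatment cannot be told apart. Whether this field is a row or a column was not stated. The study's methods use limma with quantile normalization and a threshold of 0.05 on the adjusted p.

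Processed signals of spots other than controls were log2-transformed, spots flagged as outliers were left out (119 to 172 per array), values were quantile-normalized, and spots of a probe were averaged. All 6 arrays entered 1 linear model (limma 3.58.1 in R 4.3.3; 3 residual degrees of freedom), with Benjamini-Hochberg adjustment over 55680 probes and a threshold of 0.05. Each gene was represented by its brightest probe. The procedure was tested on simulated data. No spot was saturated (0). Spots well above background numbered 27467 and 27126 (untreated), 25223 and 25002 (LPS), and 26415 and 25290 (LPS+USP7i). An exact two-sided permutation test of 2 arrays against 2 cannot go below 0.333. All probes of the members were reported; genes named from the other ligand and receptor lists were past the threshold in LPS minus untreated or LPS+USP7i minus LPS and well above background on each array of 1 or more groups. *Cd3e*, *Cd3g*, *Cd8a*, *Cd14*, *Fcgr1*, *Lck*, *Zbtb46* and the other markers were named after their values were seen. Members and lists were chosen with earlier results of these data known. Figures were drawn with matplotlib 3.10.9 (Python 3.11.15).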

Additional observations from a re-analysis of the deposited data

How the results depend on the processing

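Over all alternatives, the counts higher with LPS, higher with LPS+USP7i against untreated cells, and lower in the 2 comparisons against untreated cells differed from the counts in the report by at most 1.5 times. The count of members lower with the inhibitor was 4 and became 0 in fits of only the 2 groups compared, which have fewer degrees of freedom. With single arrays left out it ranged from 0 to 3; a group of 1 array was then taken to vary like the others. With dim probes left out it was 6, and with normexp at an offset of 50 it was 5, *Ccl3* (adjusted p = 0.0309 and 0.0105) being called in both and *Ccl4* (0.0419) in the first. *Ccl2* in LPS+USP7i minus untreated passed with 75th percentile scaling (adjusted p = 0.0111), normexp (0.00743), the deposited table (0.021), dim probes left out (0.0106), a trended prior (0.0372) and probe means (0.0451), and *Ccl17* with the first (0.0236) and dim probes left out (0.0372).

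Signs turned only for differences that did not pass the threshold. *Ccl6* in LPS minus untreated was 0.31 with 75th percentile scaling and ranged from −0.65 to 0.17 when single arrays were left out. *Ccl6* in LPS+USP7i minus untreated ranged from −0.12 to 0.58 when single arrays were left out, and was −0.09 without untreated replicate 1. *Ccl9* in the same comparison ranged from −0.014, without LPS+USP7i replicate 2, to 0.38. *Ccl22* in LPS+USP7i minus untreated, not well above background in either group, was 0.25 with 75th percentile scaling (−0.184 relative to the shifted median), 0.059 with normexp and 0.41 with the deposited table. The cause was not tested.

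With replicate number as a replicate block, the count lower with the inhibitor was 4, and those higher with LPS and with LPS+USP7i were 9 and 7. *Ccl2* (adjusted p = 0.035) and *Ccl17* (0.0254) passed in LPS+USP7i minus untreated, and no other member's call changed. At an unadjusted p under 0.05 this fit had 1 member lower with LPS and 1 higher with the inhibitor. The adjusted p of *Ccl6* was 0.148 with LPS and 0.0683 with the inhibitor. Deviations of arrays with the same number correlated at 0.468, 0.398 and 0.421 across 20705 probes, which are not independent. Replicate 1 and replicate 2 also differed in the other field of the slide position, and nothing in the labels pairs them.

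The deposited log2 table had column medians of 5.069 and 5.102 (untreated), 5.086 and 5.086 (LPS), and 5.097 and 5.086 (LPS+USP7i). It correlated with normexp-corrected, quantile-normalized median signals at 0.999968 or more, so the scale is log2 without centring of genes; the background correction used by the authors was inferred, not stated, and direction does not apply to single-color values. Signal over background limits *Ccl17* and *Ccl22*, whose log2 differences with LPS varied between 3.53 and 6.76 and between 1.31 and 4.64 over the alternatives.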
